A study of Mus musculus with 18 samples.

Results

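The cells described here were the Msx1-negative cells of mouse embryoid bodies, compared between day 16 and day 8 of differentiation. Embryoid bodies are balls of cells that form when embryonic stem (ES) cells are hung in drops without the factors that hold them pluripotent. The members were 4 RNA sequencing libraries, chosen by their labels as Msx1-negative, with 2 from day 16 and 2 from day 8. The series as a whole has 18 samples, of which 10 have a column in the table used here, and the question that its design text puts to the sorted cells is how Msx1-positive and Msx1-negative populations differ at both time points. All gene rows were considered: the table lists 54114 gene symbols, 32624 had a count in at least 1 of the 4 Msx1-negative libraries, and 22294 had enough counts to be tested.

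As far as the labels say, the day 16 and the day 8 group differed in time alone. Both came from mouse ES cells with a tdTomato reporter at Msx1 and an inducible Dlx2 transgene. Both were grown as embryoid bodies by the hanging drop method with 1 µg/ml doxycycline, the drug that switches the transgene on, and were sorted by flow cytometry for absence of the Msx1 signal. The Msx1-positive cells sorted at day 16 and day 8 had the same genotype and treatment (2 libraries each). The ES cells, used only for levels, are labelled as wild type and untreated and were kept with serum and LIF (2 libraries). Every sorted library came from doxycycline-treated cells with the Dlx2 transgene, and no uninduced or GFP-expressing cells of day 8 or day 16 were analysed here, so the effect of time and the effect of prolonged Dlx2 induction cannot be told apart. The labels do not say whether the 2 replicates of a group came from separate cultures, and the p-values measure only the spread between these libraries. With 2 libraries against 2, an exact permutation test of a single value cannot give a two-sided p below 0.333, so the tests reported are those of a model fitted across all genes.

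An embryoid body repeats some early steps of the embryo without its layout. Its outer cells become primitive endoderm, which splits into visceral endoderm, an absorptive and secretory epithelium, and parietal endoderm, which lays down a thick basement membrane of laminin and type IV collagen. Inner cells leave pluripotency for epiblast-like states and then for germ layers, and some can remain undifferentiated. Msx1 encodes a homeobox transcription factor of neural crest-derived craniofacial and dental mesenchyme, and Dlx2 one of the pharyngeal arches, so the Msx1-negative fraction is the remainder after the cells with the reporter signal have been removed.

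The sort label fitted the transcript. Msx1 had 0.830 and 0.763 CPM (read counts scaled to a common library size, with TMM factors) in the day 16 and 1.92 and 1.03 CPM in the day 8 Msx1-negative libraries, against 74.6 and 82.7 CPM at day 16 and 41.5 and 47.4 CPM at day 8 in the Msx1-positive libraries. The mean Msx1 level of the negative cells was thus 1.01% of that of the positive cells at day 16 and 3.33% at day 8. Its decline with time (log2 change -0.91 ± 0.27, where ± gives the SE of every log2 change, edgeR adjusted p = 0.018) depended on single libraries: the call was lost without either day 16 library (edgeR adjusted p = 0.0792 without replicate 1 and edgeR adjusted p = 0.122 without replicate 2) and without day 8 replicate 1 (edgeR adjusted p = 0.259, log2 change -0.39). Dlx2, the gene placed under the inducible promoter, had 133 and 148 CPM at day 16 and 273 and 275 CPM at day 8 (log2 change -0.96 ± 0.08, edgeR adjusted p = 5.2e-07), against 292 and 346 CPM at day 16 and 1152 and 1287 CPM at day 8 in Msx1-positive cells. Introduced and native Dlx2 transcripts are counted together. Total counts were 59723478 and 60386613 in the day 16 libraries and 63489887 and 56048918 in the day 8 libraries, and more symbols had a count at day 16 (28403 and 27828) than at day 8 (26562 and 25965).

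Between day 8 and day 16, 8373 of the 22294 tested genes (37.6%) changed in Msx1-negative cells at an adjusted p below 0.05 (edgeR quasi-likelihood test, two-sided, Benjamini-Hochberg adjustment over all genes tested). Of these, 4399 genes (19.7% of those tested) were higher and 3974 (17.8%) were lower at day 16. The count of each gene list below is to be read beside these shares. Counts scaled by library size alone, without TMM factors, gave 5061 higher and 2984 lower, so that the share of calls that were higher was 62.9%, against 52.5% with TMM factors. The large changes ran mostly one way under the TMM scaling: 2156 genes (9.67%) were higher by a log2 change of at least 1, which is a 2-fold change, and 296 genes (1.33%) were lower by as much. Both day 16 libraries lay above both day 8 libraries for 34.9% of the genes and below them for 33% of the genes. The median log2 change of all tested genes was 0.01. In bulk RNA of a sorted fraction, a gain or loss of cells of one type and a change of RNA per cell cannot be told apart, and this applies to every result below.

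**Figure D1:**
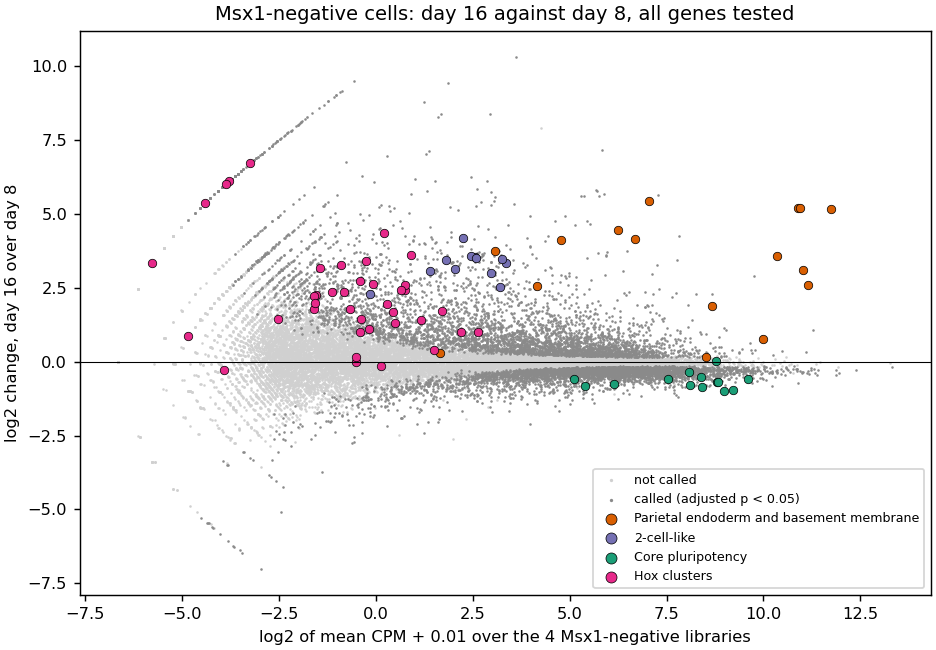
Log2 change of each tested gene between day 16 and day 8 in Msx1-negative cells (y axis, positive is higher at day 16) against the log2 of its mean CPM over the 4 Msx1-negative libraries plus 0.01 (x axis). Each point is a gene, and coloured points are the members of 4 gene lists: the basement membrane genes lie above 0 and reach 5.45, the 2-cell-like genes lie between 2.30 and 4.17 at low levels, and the core pluripotency genes lie near or below 0.

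The 6 genes with the largest absolute gain in mean CPM were all basement membrane genes (Col4a1, Lama1, Col4a2, Sparc, Lamc1 and Lamb1). Col4a1 (chromosome 8, 11198423 to 11312826, minus strand, GRCm38) and Col4a2 (chromosome 8, 11312805 to 11449287, plus strand) encode the main chains of type IV collagen, the network-forming collagen of basement membranes, and are transcribed in opposite directions from a shared start region. The sequence from 250 bases before to 50 bases after the RefSeq start of Col4a1 (GRCm38.p6, chr8:11312777-11313076, minus strand) is shown because the pair moved together; capitals mark the 78 bases that also lie in the corresponding window of Col4a2.

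Col4a1: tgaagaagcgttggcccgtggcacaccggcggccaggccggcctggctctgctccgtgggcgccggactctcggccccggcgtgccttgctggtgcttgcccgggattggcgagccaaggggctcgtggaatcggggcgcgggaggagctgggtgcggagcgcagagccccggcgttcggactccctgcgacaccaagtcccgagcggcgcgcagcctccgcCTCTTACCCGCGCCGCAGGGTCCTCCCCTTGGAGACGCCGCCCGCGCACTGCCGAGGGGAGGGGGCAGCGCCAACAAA

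Col4a1 had 6629 and 6777 CPM at day 16, against 186 and 186 CPM at day 8 (log2 change 5.17 ± 0.08, edgeR adjusted p = 2.5e-14). Col4a2 had 3557 and 3787 CPM at day 16, against 99.6 and 99.5 CPM at day 8 (log2 change 5.21 ± 0.09). Both chains were thus higher in both day 16 libraries by nearly the same log2 amount. The first exons of the RefSeq models share 22 bases, and the library kit does not mark the strand, so reads from that overlap are not separated between the genes.

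The laminin chains that pair in the embryonic basement membrane rose with them. Lama1, the alpha chain, had 3523 and 4121 CPM at day 16 and 103 and 102 CPM at day 8 (log2 change 5.21 ± 0.19, edgeR adjusted p = 1.1e-06). Lamb1, the beta chain, had 2274 and 2563 CPM at day 16 and 201 and 201 CPM at day 8 (log2 change 3.59 ± 0.08). Lamc1, the gamma chain, had 3737 and 4124 CPM at day 16 and 655 and 638 CPM at day 8 (log2 change 2.60 ± 0.09). In none of these did the day 16 and day 8 libraries overlap, and the chain with the highest level at day 8 had the smallest change. Per kilobase of exon, the mean level at day 16 was 898 CPM for Col4a1, 555 for Col4a2, 475 for Lamc1, 395 for Lama1 and 244 for Lamb1. The corresponding day 8 levels per kilobase were 24.9, 15.0, 78.1, 10.6 and 20.3 CPM, so Lamc1 ranked first of these at day 8 and Col4a1 at day 16. The 5 genes together took 1.99% and 2.13% of all counts in the day 16 libraries, against 0.119% and 0.117% in the day 8 libraries. In Msx1-positive cells the same share was 0.325% and 0.287% at day 16 and 0.193% and 0.219% at day 8.

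Other genes of parietal endoderm and its matrix moved the same way. Of the 16 listed members, all tested, 14 rose and 2 were not called, with a median log2 change of 3.67 beside 0.01 for all genes; leaving out 1 library at a time left 13 or 14 higher. Sparc, a secreted collagen-binding glycoprotein, had 3862 and 3592 CPM at day 16 and 428 and 431 CPM at day 8 (log2 change 3.12 ± 0.06). Nid1, which links laminin to type IV collagen, had 637 and 644 CPM at day 16 and 175 and 174 CPM at day 8 (log2 change 1.87 ± 0.07). Serpinh1, the chaperone of collagen folding in the endoplasmic reticulum and not a member of the list, rose alongside, with 1524 and 1523 CPM at day 16 and 200.4 and 209 CPM at day 8 (log2 change 2.90 ± 0.06). The receptor, secreted and regulatory members were as far apart as the structural ones. Pth1r, the receptor for parathyroid hormone-related protein, had 248 and 269 CPM at day 16 and 5.71 and 6.13 CPM at day 8 (log2 change 5.45 ± 0.09, edgeR adjusted p = 3.2e-14). Fst, a secreted antagonist of activins, had 154 and 138 CPM at day 16 and 7.29 and 5.96 CPM at day 8 (log2 change 4.46 ± 0.11). Srgn, a proteoglycan core protein, had 206 and 185 CPM at day 16 and 11 and 11.2 CPM at day 8 (log2 change 4.15 ± 0.17). The protease Plat (4.12 ± 0.15), the thrombin receptor Thbd (3.75 ± 0.14) and the zinc finger repressor Snai1 (2.57 ± 0.11) completed the log2 changes above 2. Hspg2, the basement membrane proteoglycan perlecan, had 1144 and 1394 CPM at day 16 and 758 and 749 CPM at day 8 (log2 change 0.75 ± 0.19, edgeR adjusted p = 0.026), and the call was lost without day 16 replicate 2 (edgeR adjusted p = 0.101), day 8 replicate 1 (edgeR adjusted p = 0.125) or day 8 replicate 2 (edgeR adjusted p = 0.133). Nid2 (376 and 407 CPM at day 16, 345 and 349.9 CPM at day 8) and Lamb3, an epidermal laminin chain (3.09 and 3.88 CPM at day 16 and 2.70 and 2.94 CPM at day 8), were not called.

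**Figure D2:**
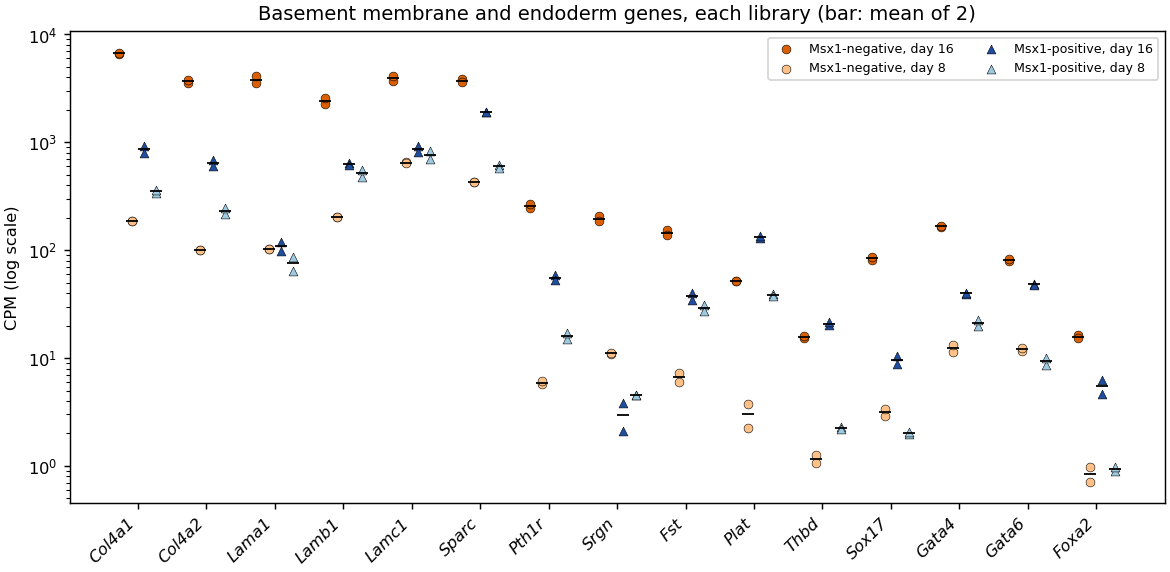
CPM (log axis) of 15 basement membrane and endoderm genes in each sorted library, 1 point per library, with day 16 and day 8 Msx1-negative cells followed by day 16 and day 8 Msx1-positive cells. Col4a1 lies at 6629 and 6777 CPM in day 16 Msx1-negative cells, against 186 CPM in both day 8 Msx1-negative libraries.

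Most listed transcription factors of endoderm were higher at day 16 as well. Of 18 listed factors, 17 were tested, 12 rose and 1 fell (median log2 change 1.26); leaving out 1 library at a time left 10 to 12 higher, and the lower call was kept without day 8 replicate 2 but lost without any of the other libraries. Sox17, an HMG-box factor of primitive and definitive endoderm, had 81.8 and 87 CPM at day 16 and 2.91 and 3.35 CPM at day 8 (log2 change 4.75 ± 0.11, edgeR adjusted p = 5.3e-13). Gata4, a zinc finger factor of primitive endoderm and heart, had 165 and 167 CPM at day 16 and 11.5 and 13.2 CPM at day 8 (log2 change 3.75 ± 0.09). Gata6, which can drive ES cells to primitive endoderm, had 79.95 and 83.7 CPM at day 16 and 11.8 and 12.4 CPM at day 8 (log2 change 2.76 ± 0.09). None of these overlapped between the days. Foxa2, a forkhead factor of visceral and definitive endoderm, had 16.4 and 15.3 CPM at day 16 and 0.970 and 0.712 CPM at day 8 (log2 change 4.22 ± 0.21). Sox7 (2.44 ± 0.17) and Hnf4a (1.48 ± 0.20), the last a nuclear receptor of visceral endoderm and liver, rose by smaller log2 amounts. Pdx1, Hhex, Foxa3 and Onecut1, factors of pancreas, liver and foregut, were not called.

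Most listed secreted and absorptive products of visceral endoderm were higher at day 16, while Apoe was lower. Of 21 listed genes, 19 were tested, 14 rose and 2 fell (median log2 change 2.00). Afp, the fetal serum carrier alpha-fetoprotein, had 11.9 and 12.2 CPM at day 16 and 0.197 and 0.225 CPM at day 8 (log2 change 5.83 ± 0.24, edgeR adjusted p = 1.4e-10). Ttr, the thyroxine and retinol carrier transthyretin, had 12.6 and 10.7 CPM at day 16 and 0.855 and 0.937 CPM at day 8 (log2 change 3.70 ± 0.21). Apoa1 (3.40 ± 0.25), Apob (2.46 ± 0.18) and Rbp4 (2.31 ± 0.13), which carry lipids and retinol in plasma, also rose. Dab2, an endocytic adaptor of both extraembryonic endoderm types, had 209.9 and 202 CPM at day 16 and 41.8 and 38.9 CPM at day 8 (log2 change 2.35 ± 0.07). The uptake receptors it works with rose by smaller log2 amounts: Cubn had 218 and 237 CPM at day 16 and 71.9 and 74.6 CPM at day 8 (log2 change 1.64 ± 0.12), and Lrp2 had 229 and 258 CPM at day 16 and 91.2 and 87.4 CPM at day 8 (log2 change 1.45 ± 0.09). Apoe, which is made by many cell types, fell to 888 and 856 CPM at day 16, against 1494 and 1568 CPM at day 8 (log2 change -0.81 ± 0.06). The summed CPM of the list, Apoe included, was 1674 and 1683 at day 16 and 1728 and 1798 at day 8. The second lower member, Apoa2, lost its call when any one of the 4 libraries was left out (adjusted p from 0.0527 without day 8 replicate 1 to 0.12 without day 8 replicate 2). Alb, the adult liver protein albumin, had 8 counts over both day 16 libraries and 2 over both day 8 libraries.

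Most core pluripotency genes were lower at day 16 but still abundant. Pou5f1, which encodes Oct4, had 334 and 344 CPM at day 16 and 553 and 547 CPM at day 8 (log2 change -0.70 ± 0.05, edgeR adjusted p = 1.4e-07). Sox2, its partner on DNA, had 346 and 350.5 CPM at day 16 and 569 and 555 CPM at day 8 (log2 change -0.69 ± 0.06, edgeR adjusted p = 7.2e-07). Nanog, the homeobox factor of the naive state, had 452 and 432 CPM at day 16 and 441 and 421 CPM at day 8 (log2 change 0.04 ± 0.07, edgeR adjusted p = 0.75). The groups overlapped for Nanog and were apart for Pou5f1 and Sox2. In all, 13 of the 14 core pluripotency genes fell (median log2 change -0.69), with 12 or 13 lower when 1 library was left out. The largest declines were those of Utf1, a chromatin-bound cofactor of ES cells, with 330.5 and 346 CPM at day 16 and 645 and 693 CPM at day 8 (log2 change -0.98 ± 0.07), and of L1td1, an RNA-binding protein (-0.96 ± 0.07). Lin28a, which blocks let-7 maturation, had 198 and 206 CPM at day 16 and 348 and 344 CPM at day 8 (log2 change -0.78 ± 0.05). Tdgf1, a Nodal co-receptor, had 627 and 618 CPM at day 16 and 928 and 927 CPM at day 8 (log2 change -0.58 ± 0.05).

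Among the naive and the formative genes, more fell than rose. Of 21 naive genes, 16 fell and 1 rose (median log2 change -0.42; 13 or 14 lower with 1 library left out). Esrrb, an orphan nuclear receptor, had 379.8 and 374 CPM at day 16 and 602 and 593 CPM at day 8 (log2 change -0.67 ± 0.05). Nr0b1 (-0.91 ± 0.06), Fgf4 (-0.85 ± 0.06) and Dppa4 (-0.71 ± 0.06) fell by log2 amounts of similar size. Klf4, a Krüppel-like factor of the naive network, was the member that rose, with 242 and 256 CPM at day 16 and 188 and 196 CPM at day 8 (log2 change 0.38 ± 0.06, edgeR adjusted p = 0.00016). Tbx3 (262 and 289 CPM at day 16, 286 and 284 CPM at day 8) was not called. Of 16 formative and primed genes, 9 fell and 1 rose (median log2 change -0.77). Dnmt3b, a de novo DNA methyltransferase of the epiblast, had 133 and 135 CPM at day 16 and 310.1 and 306 CPM at day 8 (log2 change -1.20 ± 0.06, edgeR adjusted p = 2e-09). The epiblast factors Pou3f1 (-1.06 ± 0.10) and Zic2 (-1.08 ± 0.10) and the kinase Pim2 (-1.41 ± 0.08) fell by log2 amounts above 1 in size, while Fgf5, the ligand that marks epiblast, stood at 8.58 and 8.81 CPM at day 16 and 9.03 and 9.37 CPM at day 8 and was not called. The member that rose was Cldn6, a tight junction claudin (1.72 ± 0.07).

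The levels of the same genes in ES cells, on a scale computed over 10 libraries that differs slightly from the one above, place these values. Pou5f1 had 753.5 and 777.9 CPM in ES cells, 544.5 and 539.1 CPM at day 8 and 329.5 and 338.7 CPM at day 16. Nanog had 334.2 and 365.9 CPM in ES cells, 434.1 and 414.9 CPM at day 8 and 445.2 and 425.3 CPM at day 16. Pou5f1 therefore stepped down at each stage while both sorted stages of Nanog lay above the ES cells. Dnmt3b had 301.4 and 287.2 CPM in ES cells, 305.4 and 301.8 CPM at day 8 and 131.4 and 133.4 CPM at day 16. Zic2 had 7.85 and 8.18 CPM in ES cells, 124.2 and 122.4 CPM at day 8 and 52.6 and 63.9 CPM at day 16. Lef1, a WNT-responsive factor, had 6.55 and 7.18 CPM in ES cells, 25.6 and 25.1 CPM at day 8 and 8.29 and 11.02 CPM at day 16. Zic2 and Lef1 thus peaked at day 8 among the 3 stages, and Klf4 had its lowest values there, with 481.1 and 464.6 CPM in ES cells, 185.5 and 193.3 CPM at day 8 and 238.7 and 252.5 CPM at day 16. The day 16 level of Pou5f1 in the negative fraction stood far above that of Msx1-positive cells of day 16 (16.1 and 16.7 CPM).

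**Figure D3:**
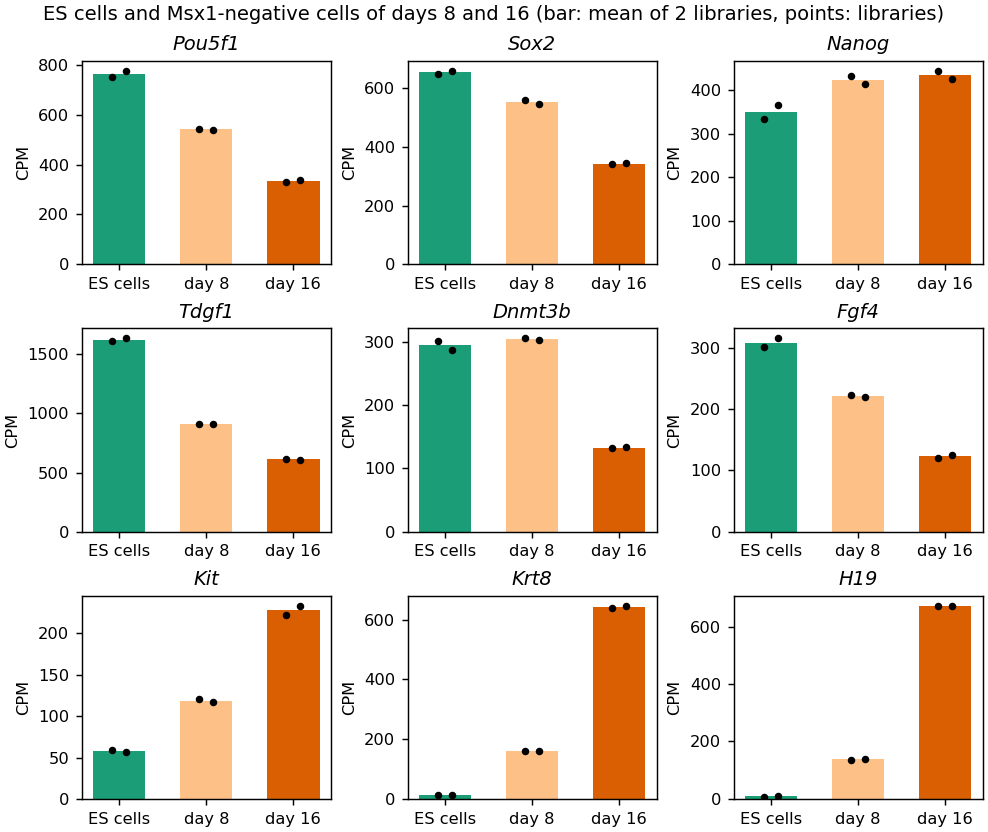
Mean CPM (bars, from 0) and the 2 libraries of each group (points) for 9 genes in ES cells, day 8 and day 16 Msx1-negative cells, on the scale computed over 10 libraries. Pou5f1, Sox2, Tdgf1 and Fgf4 step down over the 3 stages, Nanog does not, and Kit, Krt8 and H19 step up.

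A group of genes known from the 2-cell embryo rose from low levels. The Zscan4 genes encode zinc finger proteins that are switched on at genome activation in the mouse embryo and, in ES cell cultures, in short bursts in a minority of cells. Of 15 listed genes of this state, 12 were tested and all 12 rose, in the fit with all libraries and with each of the 4 Msx1-negative libraries left out (median log2 change 3.39). Members of these families are near-identical copies, and the sequence around the start of 3 Zscan4 genes, from 250 bases before to 50 bases after (RefSeq, GRCm38.p6), shows how close: Zscan4c lies at chr7:11005495-11005794 (plus strand), Zscan4d at chr7:11166099-11166398 (minus strand) and Zscan4f at chr7:11397665-11397964 (plus strand). Capitals mark the motif TATAAA, searched on both strands, whose first base lies at -54, -65 and -31 relative to the annotated start.

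Zscan4c: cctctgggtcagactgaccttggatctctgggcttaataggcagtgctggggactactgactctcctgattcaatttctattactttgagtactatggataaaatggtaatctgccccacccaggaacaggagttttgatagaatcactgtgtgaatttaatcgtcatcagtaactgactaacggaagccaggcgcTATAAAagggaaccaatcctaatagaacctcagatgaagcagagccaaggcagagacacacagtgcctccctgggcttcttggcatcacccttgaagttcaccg
Zscan4d: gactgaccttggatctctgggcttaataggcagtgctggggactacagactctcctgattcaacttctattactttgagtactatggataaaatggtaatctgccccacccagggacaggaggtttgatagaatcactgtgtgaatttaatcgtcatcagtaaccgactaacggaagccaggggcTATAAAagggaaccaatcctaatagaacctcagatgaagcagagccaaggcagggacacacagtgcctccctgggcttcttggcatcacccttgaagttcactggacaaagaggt
Zscan4f: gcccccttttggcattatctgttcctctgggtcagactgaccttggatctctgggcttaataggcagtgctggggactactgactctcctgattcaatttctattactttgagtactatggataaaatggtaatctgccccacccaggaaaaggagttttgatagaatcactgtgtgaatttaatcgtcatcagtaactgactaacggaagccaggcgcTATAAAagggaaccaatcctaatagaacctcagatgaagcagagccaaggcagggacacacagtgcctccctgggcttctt

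Aligned on the motif without gaps, the sequence of Zscan4c was identical to that of Zscan4f at 99.3% of 277 bases and to that of Zscan4d at 97.2% of 289 bases. TATAAA was found in 5 of 10 promoters of the 2-cell-like list, beside 8.55% of the 17900 promoters of tested genes and 13.6% of all 32851 promoters in the table. The 5 were those of Usp17lc, Zscan4b, Zscan4c, Zscan4d and Zscan4f, and close copies among them are not independent promoters. With copies this close, how reads were divided among them is uncertain, and the genes are best read as a family. Zscan4c had 19.4 and 15.7 CPM at day 16 and 1.36 and 1.76 CPM at day 8 (log2 change 3.49 ± 0.21, edgeR adjusted p = 7.3e-09). Zscan4d had 14 and 13.9 CPM at day 16 and 2.07 and 1.39 CPM at day 8 (log2 change 3.002 ± 0.22). Zscan4f had 12.3 and 9.64 CPM at day 16 and 0.954 and 0.974 CPM at day 8 (log2 change 3.51 ± 0.25). The other families of the same state moved alike: the deubiquitinase gene Usp17la (4.17 ± 0.24), Tcstv1 (3.15 ± 0.31) and Gm4340 (2.53 ± 0.22) rose, and the summed CPM of the 12 genes was 136 and 117 at day 16, against 13.0 and 13.6 at day 8. In Msx1-positive cells the same sum was 34.0 and 40.7 at day 16 and 30.4 and 25.8 at day 8, and 1 of the 12 genes was called. In ES cells Zscan4c had 0 and 0.118 CPM.

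Germ cell genes were divided. Of 16 listed genes, 15 were tested, 6 rose and 4 fell (median log2 change 0.05; 0.21 without day 16 replicate 1); the number lower was 1 without day 16 replicate 2 and 2 without either day 8 library. Dazl, an RNA-binding protein of germ cells, had 92.1 and 78.5 CPM at day 16 and 39 and 41 CPM at day 8 (log2 change 1.09 ± 0.11, edgeR adjusted p = 4.9e-06). Kit, the receptor for stem cell factor, had 226 and 237 CPM at day 16 and 122 and 119 CPM at day 8 (log2 change 0.94 ± 0.06). Both lay higher at day 16 than in ES cells, where, on the scale of 10 libraries, Dazl had 15.7 and 18.3 CPM and Kit had 58.8 and 56.4 CPM. Stra8, a retinoic acid-induced gene of meiotic entry, rose by less (0.44 ± 0.09). Piwil2, of the piRNA pathway, fell (-0.39 ± 0.09), and Dppa3 and Prdm1, markers of primordial germ cells, were not called.

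Most listed mesenchymal genes rose in the Msx1-negative cells too, to levels far below those of the Msx1-positive cells. Of 30 ectomesenchyme genes, all tested, 21 rose and 3 fell (median log2 change 1.08; 17 to 19 higher with 1 library left out). Prrx1, a homeobox factor of craniofacial and limb mesenchyme, had 10.2 and 10.04 CPM at day 16 and 0.855 and 0.562 CPM at day 8 (log2 change 3.82 ± 0.12, edgeR adjusted p = 1e-11), against 618 and 619.6 CPM in Msx1-positive cells at day 16. Pdgfra, a growth factor receptor of mesenchyme that primitive endoderm also expresses, had 145 and 153 CPM at day 16 and 18.1 and 17 CPM at day 8 (log2 change 3.08 ± 0.07), against 210.3 and 195 CPM in Msx1-positive cells at day 16. The mean level of the negative cells at day 16 was thus 1.64% of that of the positive cells for Prrx1 and 73.7% for Pdgfra. Twist1, a basic helix-loop-helix factor of cranial mesenchyme, had 9.91 and 12.9 CPM at day 16 and 6.09 and 6.03 CPM at day 8 (log2 change 0.91 ± 0.13). Hand2 (2.83 ± 0.23), Ednra, the endothelin receptor of the arches (2.42 ± 0.12), and Dlx3 (1.63 ± 0.13) also rose. Dlx1, the neighbour of Dlx2, fell, with 1.01 and 1.01 CPM at day 16 and 3.12 and 3.48 CPM at day 8 (log2 change -1.70 ± 0.14), as did Dlx5 (-1.82 ± 0.21). The neural crest factors Tfap2a (5.91 and 5.49 CPM at day 16, 5.13 and 5.43 CPM at day 8) and Sox10 (0.598 and 0.763 CPM at day 16 and 0.263 and 0.525 CPM at day 8) were not called. Of 21 neural crest and plate border genes, 8 rose and 5 fell, beside 19.7% higher and 17.8% lower over all tested genes. Zic1 (log2 change 3.84), Pax3 (2.48) and Ets1 (2.26) were among the 8 that rose. The summed CPM of the ectomesenchyme list was 349.5 and 371.6 at day 16 and 129.1 and 133.8 at day 8 in the negative cells, which is 18.9% of the Msx1-positive level at day 16 and 11.9% at day 8. Pdgfra alone, which primitive endoderm also expresses, gave 145 and 153 CPM of that sum at day 16 and 18.1 and 17 CPM at day 8. Whether mesenchymal cells without the reporter signal, or positive cells carried over in the sort, had a part in these values was not tested.

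Most listed matrix and contractile genes rose as well. Of 24 matrix genes, 23 were tested and 20 rose, with 20 also higher in each fit without 1 library (median log2 change 2.09). Col1a1, the main chain of type I collagen, had 279.5 and 325 CPM at day 16 and 6.12 and 6.07 CPM at day 8 (log2 change 5.63 ± 0.18, edgeR adjusted p = 1.2e-07), against 7855 and 7062 CPM in Msx1-positive cells at day 16. Col3a1 had 112 and 121 CPM at day 16 and 2.12 and 2.49 CPM at day 8 (log2 change 5.66 ± 0.09), and Cdh11, a mesenchymal cadherin, had 27.5 and 28.8 CPM at day 16 and 1.38 and 1.76 CPM at day 8 (log2 change 4.17 ± 0.10). The day 16 means were 4.05% of the Msx1-positive level for Col1a1 and 4.91% for Col3a1. Fn1, which encodes fibronectin, was high on both days (1521 and 1589 CPM at day 16 and 1686 and 1639 CPM at day 8) and was not called. The intermediate filament gene Vim rose (1.44 ± 0.07). Thy1 fell (log2 change -0.26), a call lost without day 16 replicate 2 (edgeR adjusted p = 0.105) and without day 8 replicate 2 (edgeR adjusted p = 0.0603). Of 14 smooth muscle and pericyte genes, 11 rose and 2 fell; 1 was lower without either day 16 library or day 8 replicate 1. Acta2, smooth muscle actin, had 112 and 112 CPM at day 16 and 1.05 and 0.468 CPM at day 8 (log2 change 7.17 ± 0.15; 7.88 without day 8 replicate 1), against 985 and 1044 CPM in Msx1-positive cells at day 16. Mcam, a surface adhesion molecule of pericytes and endothelium, fell, with 73 and 68.1 CPM at day 16 and 132 and 125 CPM at day 8 (log2 change -0.86 ± 0.06).

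Of 19 odontogenic mesenchyme genes, 18 were tested, 11 rose and 1 fell (median log2 change 1.72). Tnc, the matrix glycoprotein tenascin C, had 78.4 and 82.7 CPM at day 16 and 1.40 and 1.97 CPM at day 8 (log2 change 5.59 ± 0.12, edgeR adjusted p = 4.8e-13), against 1586 and 1399 CPM in Msx1-positive cells at day 16. Inhba, the activin A subunit, had 728 counts over both day 16 libraries and 2 over both day 8 libraries, a ratio of 345 (95% exact interval 95.1 to 2853). Fgf10 (3.34 ± 0.13) and Pax9, a paired-box factor of dental mesenchyme (2.21 ± 0.24), rose, and Bmp4 was the member that fell (-0.45 ± 0.09). The summed CPM of the list was 243.8 and 242.0 at day 16 and 86.8 and 86.0 at day 8, which is 6.23% of the Msx1-positive level at day 16 and 13.0% at day 8.

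The Hox genes, which pattern the trunk and limbs along the body axis and are mostly silent in the anterior craniofacial mesenchyme, rose as a group. Of 39 genes, 31 rose and 8 were not called (median log2 change 1.98); 26 to 28 were higher with 1 library left out, and 20 were higher where a gene had to reach 1 CPM in at least 4 libraries. Hoxa10 had 3.04 and 3.85 CPM at day 16 and 0.296 and 0.262 CPM at day 8 (log2 change 3.61 ± 0.29, edgeR adjusted p = 1.9e-07), and Hoxb9 had 7.14 and 9.34 CPM at day 16 and 4.21 and 4.08 CPM at day 8 (log2 change 0.99 ± 0.12). The levels were low: the summed CPM of all 39 genes was 62.0 and 64.1 at day 16 and 22.1 and 22.2 at day 8, against 291 CPM in both day 16 libraries of Msx1-positive cells, where 35 of the 39 rose.

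Most listed placental, epithelial adhesion and imprinted genes rose in the negative cells. Of 17 trophectoderm and placenta genes, 16 were tested and 13 rose (median log2 change 1.04; 10 to 12 with 1 library left out). Krt8, a keratin of simple epithelia, had 648 and 657 CPM at day 16 and 161 and 164 CPM at day 8 (log2 change 2.002 ± 0.05, edgeR adjusted p = 1.8e-12). Krt18, with which it forms filaments, had 426 and 409 CPM at day 16 and 106 and 116 CPM at day 8 (log2 change 1.92 ± 0.08). Both are shared with endodermal epithelium, and Krt8 had 13.9 and 14.3 CPM in ES cells. The more restricted members were lower in level: Plac1 had 36.3 and 29.9 CPM at day 16 and 12.3 and 13 CPM at day 8 (log2 change 1.39 ± 0.13), Tpbpa, of the spongiotrophoblast, had 12.5 and 10.6 CPM at day 16 and 4.38 and 5.34 CPM at day 8 (log2 change 1.25 ± 0.22), and Elf5 and Gcm1, which define trophoblast lineages, were not called. Of 20 epithelial adhesion genes, 14 rose and 6 were not called (median log2 change 0.58; 11 or 12 higher with 1 library left out). Krt19 had 199.6 and 207 CPM at day 16 and 53.9 and 55.4 CPM at day 8 (log2 change 1.89 ± 0.06), and the desmosome gene Dsp had 154 and 194 CPM at day 16 and 71.1 and 74.8 CPM at day 8 (log2 change 1.26 ± 0.16). Cdh1, which encodes E-cadherin of ES cells and epithelia alike, was not called (396 and 428 CPM at day 16 and 391 and 391 CPM at day 8), nor was Epcam (174 and 181 CPM at day 16 and 198 and 195 CPM at day 8). Of 20 imprinted genes, which are expressed from the copy of one parent, 19 were tested and 15 rose (median log2 change 0.90; 14 or 15 with 1 library left out). H19, a maternally expressed non-coding RNA, had 682 and 683 CPM at day 16 and 137 and 142 CPM at day 8 (log2 change 2.29 ± 0.06). Its neighbour Igf2, a paternally expressed growth factor, had 129.7 and 154 CPM at day 16 and 27.7 and 29.2 CPM at day 8 (log2 change 2.32 ± 0.15).

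In the retinoic acid pathway, 13 of 16 genes rose and 2 fell (median log2 change 0.93). The degrading enzyme Cyp26a1, itself a target of the pathway, had 66.5 and 68.2 CPM at day 16 and 2.35 and 3.11 CPM at day 8 (log2 change 4.63 ± 0.13, edgeR adjusted p = 2e-12), and the retinol transporter Stra6 had 25.7 and 25.2 CPM at day 16 and 2.73 and 2.23 CPM at day 8 (log2 change 3.35 ± 0.13). The receptors Rara (-0.75 ± 0.08) and Rarg (-0.70 ± 0.06) were the genes that fell. Of 14 hedgehog genes, 7 rose and 3 fell. Ihh, the Indian hedgehog ligand of visceral endoderm, had 15.9 and 17.2 CPM at day 16 and 1.48 and 1.54 CPM at day 8 (log2 change 3.46 ± 0.17), while Ptch1 (-0.48 ± 0.08), the pathway's receptor and feedback gene, fell. In the BMP pathway, 11 of 19 genes rose and 3 fell, with 1 lower without day 8 replicate 1. Bmp2 had 11.8 and 10.6 CPM at day 16 and 0.970 and 0.787 CPM at day 8 (log2 change 3.66 ± 0.14), and the secreted antagonist Nog had 29.2 and 32.1 CPM at day 16 and 1.23 and 0.768 CPM at day 8 (log2 change 4.92 ± 0.22). The target genes Id1 (0.66 ± 0.09) and Id2 (1.41 ± 0.13) rose, and Id3 was not called.

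In the WNT pathway, 12 of 21 genes rose and 4 fell (median log2 change 0.63; 0.41 without day 8 replicate 1). The ligand Wnt11 had 13.8 and 14.7 CPM at day 16 and 1.28 and 1.44 CPM at day 8 (log2 change 3.38 ± 0.15), with Wnt4 (2.53 ± 0.14) and Wnt6 (2.36 ± 0.11) also higher. Among the genes that fell were the nuclear factors Lef1 (-1.40 ± 0.12) and Tcf7 (-0.51 ± 0.07) and the secreted inhibitor Notum (-1.25 ± 0.12). Of 16 tested TGF-beta, Activin and Nodal genes, 10 rose and 4 fell, also with any 1 library left out. Tgfb2 had 19.7 and 21.3 CPM at day 16 and 2.20 and 2.90 CPM at day 8 (log2 change 3.01 ± 0.11), and its receptor Tgfbr2 had 30.8 and 32.2 CPM at day 16 and 4.79 and 4.35 CPM at day 8 (log2 change 2.78 ± 0.09). The 4 lower genes all belonged to the Nodal arm: Nodal (-0.43 ± 0.07), its feedback inhibitor Lefty2 (-0.47 ± 0.05), the co-receptor Tdgf1 and the ligand Gdf3 (-0.76 ± 0.07). That arm did not fall as a whole, since Cer1, a secreted inhibitor of Nodal, was among the genes that rose. Of 19 FGF and ERK feedback genes, 9 fell and 4 rose (median log2 change -0.47; -0.16 without day 16 replicate 2 and -0.26 without day 8 replicate 1). Spry4, an induced inhibitor of ERK signalling, had 42.6 and 46.7 CPM at day 16 and 111 and 104 CPM at day 8 (log2 change -1.27 ± 0.08, edgeR adjusted p = 8.3e-09). The ERK-responsive factors Etv4 (-0.75 ± 0.06) and Etv5 (-0.54 ± 0.05) and the phosphatase Dusp6 (-0.56 ± 0.06) fell as well, whereas the receptors Fgfr2 (1.03 ± 0.08) and Fgfr3 (2.38 ± 0.11) rose.

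Replication genes were lower at day 16. Of 20 genes of DNA replication, 16 fell and 1 rose in the fit with all libraries and with any 1 left out (median log2 change -0.40). Mcm2, a subunit of the replicative helicase, had 429 and 455 CPM at day 16 and 662 and 678 CPM at day 8 (log2 change -0.60 ± 0.07), and Pola1, of the priming polymerase, had 68.7 and 72.3 CPM at day 16 and 111 and 110.5 CPM at day 8 (log2 change -0.65 ± 0.06). Mitotic genes moved less: 10 of 20 fell and 1 rose, but 6 fell when any 1 of the 4 libraries was left out, and 5 fell with scaling by library size alone. Mki67, the proliferation antigen, was not called (317 and 358 CPM at day 16 and 322 and 295 CPM at day 8). Among DNA methylation genes, 8 of 12 fell, with 7 or 8 lower when 1 library was left out. The methylcytosine oxidase Tet1 had 230.3 and 242 CPM at day 16 and 439 and 422 CPM at day 8 (log2 change -0.86 ± 0.07), and Dnmt3a (-0.70 ± 0.07), Dnmt3l (-0.86 ± 0.06) and Uhrf1 (-0.60 ± 0.06) fell with Dnmt3b. Of 17 genes of CDK inhibitors and p53 targets, 7 rose and 6 fell (median log2 change 0.05). The cell cycle inhibitors Cdkn1c (1.37 ± 0.09), an imprinted gene, and Cdkn2b (1.32 ± 0.13) were among those that rose.

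Immediate early genes, which respond within minutes to growth factors and also to cell dissociation, were higher at day 16. Of 17 tested, 12 rose and 2 fell (median log2 change 0.88), and in Msx1-positive cells 15 of the 17 rose. Fosb had 269 and 265 CPM at day 16 and 49.8 and 47.7 CPM at day 8 (log2 change 2.45 ± 0.06), and Atf3 had 52.5 and 53.9 CPM at day 16 and 8.90 and 8.54 CPM at day 8 (log2 change 2.61 ± 0.08). These genes moved with the same contrast as every group above, and their part in the other changes was not tested. Hypoxia and glycolysis genes had no common direction: 5 of 22 rose and 8 fell, with 5 lower without day 8 replicate 2. Over all tested genes the shares were 19.7% higher and 17.8% lower. Vegfa (1.14 ± 0.06) and Ndrg1 (1.33 ± 0.07) rose, while the glycolytic enzyme Eno1 had 2192 and 2310 CPM at day 16 and 3049 and 3083 CPM at day 8 (log2 change -0.45 ± 0.06), and Pdk1, which restrains pyruvate use in mitochondria, fell (-0.79 ± 0.06). Of 19 sterol and lipid synthesis genes, 10 fell and 3 rose, with 6 lower and 1 higher without day 8 replicate 2. Insig1, the sterol-regulated brake on the pathway, rose, with 286 and 303 CPM at day 16 and 139 and 139.5 CPM at day 8 (log2 change 1.08 ± 0.06). Tmpo, which encodes the nuclear protein LAP2 named in the study's title, had 220.2 and 226 CPM at day 16 and 253 and 249.7 CPM at day 8 (log2 change -0.17 ± 0.05, edgeR adjusted p = 0.017). Its call was lost when any one of the 4 libraries was left out (edgeR adjusted p = 0.114 and 0.0565 without day 16 replicates 1 and 2, and edgeR adjusted p = 0.0985 and 0.0778 without day 8 replicates 1 and 2) and with scaling by library size alone (edgeR adjusted p = 0.145).

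Genes of blood vessels and blood moved in both directions. Of 20 endothelial genes, 11 rose and 5 fell (median log2 change 0.75, and 0.48 without day 16 replicate 2). Sox17, shared with endoderm, is among those that rose. Flt1, a VEGF receptor, had 38.8 and 41.8 CPM at day 16 and 6.18 and 6.45 CPM at day 8 (log2 change 2.68 ± 0.09), and Cdh5, the cadherin of endothelial junctions, had 57.1 and 64.2 CPM at day 16 and 21.1 and 19 CPM at day 8 (log2 change 1.59 ± 0.09). Robo4 (-1.06 ± 0.10) and Etv2, the early inducer of the lineage (-1.15 ± 0.29), fell. Of 12 tested erythroid genes, 5 rose and 2 fell, with 1 lower without day 16 replicate 2. The largest log2 changes of the list were those of embryonic globins: Hbb-y had 873 counts over both day 16 libraries and 1 over both day 8 libraries, a ratio of 827 (95% exact interval 148 to 32700), and Hba-x had 4.48 and 5.78 CPM at day 16 and 0.0329 and 0.0375 CPM at day 8. The adult alpha globin gene Hba-a1 rose as well (2.88 ± 0.39). The summed CPM of the 12 tested erythroid genes was lower at day 16 (345.6 and 335.5) than at day 8 (443.5 and 441.8). Globin genes are close copies of each other, so their counts are uncertain, and Gata1, the factor that drives the lineage, was not called. Of 20 leukocyte genes, 7 had too few counts to be tested, among them Adgre1, Tyrobp, Lyz2 and Cx3cr1 of macrophages. Of the 13 tested, 2 rose, including the receptor gene Csf1r (2.90 and 3.22 CPM at day 16 and 0.740 and 1.09 CPM at day 8), and 2 fell. The shares over all tested genes were 19.7% higher and 17.8% lower. The summed CPM of the 13 genes was 100.6 and 103.3 at day 16 and 137.0 and 138.7 at day 8.

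Other lineages were mixed. Over all tested genes, 19.7% were higher and 17.8% were lower at day 16. Neuronal genes were split evenly, 5 of 19 higher and 5 lower, near those shares. Their median log2 change was 0.07, and -0.24 without day 16 replicate 2. Neurod1, a neurogenic factor, had 1.11 and 0.863 CPM at day 16 and 4.23 and 3.82 CPM at day 8 (log2 change -2.03 ± 0.28). The neurofilament-related gene Ina had 12.8 and 12.4 CPM at day 16 and 39.9 and 40.8 CPM at day 8 (log2 change -1.68 ± 0.09). Sox1, of the neural plate, had 14.7 and 16.2 CPM at day 16 and 29.2 and 32.5 CPM at day 8 (log2 change -0.999 ± 0.10), and Olig2, of oligodendrocyte and motor neuron progenitors, fell as well (-1.32 ± 0.21). Nes, an intermediate filament of neural and other progenitors, rose (1.81 ± 0.10). Of 14 tested kidney genes, 8 rose and 2 fell. Podxl, a sialomucin of podocytes and other epithelia, had 310.2 and 339 CPM at day 16 and 72 and 71 CPM at day 8 (log2 change 2.18 ± 0.07), whereas Nphs1, the slit diaphragm gene nephrin, fell (-1.27 ± 0.11). Of 18 tested cardiac genes, 9 rose, 6 of them at least 2-fold, and 9 were not called. The contractile genes Actc1, Tnnt2 and Myh7 were among those that rose, as was Gata4, which is shared with endoderm. The atrial and ventricular genes Myl7 and Myh6 were not called. Sp7, the osteoblast factor osterix, fell to 0.830 and 0.913 CPM at day 16, against 1.66 and 1.76 CPM at day 8 (log2 change -0.97 ± 0.16), and Col11a1, a cartilage collagen, rose (3.28 ± 0.10). Of 17 tested motile cilia genes, 5 fell and 12 were not called, with 3 lower without day 8 replicate 1.

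The genes with the largest relative gains were not those of the lists alone. Of 823 genes that were called higher by a log2 change of at least 1, reached 5 CPM at day 16 and did not overlap between the days, the 15 with the largest change included Gkn2 and Gkn1, which encode gastrokines, secreted proteins of the stomach lining. Gkn2 had 26.6 and 22.6 CPM at day 16; its counts were 2965 over both day 16 libraries and 2 over both day 8 libraries, a ratio of 1404 (95% exact interval 388 to 11600). Gkn1 had 769 counts over both day 16 and 2 over both day 8 libraries (ratio 364, interval 100.5 to 3013). Neither was detectable above 0.2 CPM in Msx1-positive cells. Aqp8, a water channel of digestive epithelia, had 103 and 102 CPM at day 16 and 1.64 and 2.12 CPM at day 8 (log2 change 5.78 ± 0.18). Hs3st1, a heparan sulfate sulfotransferase, had 99.4 and 101 CPM at day 16 and 1.96 and 1.57 CPM at day 8 (log2 change 5.82 ± 0.11, edgeR adjusted p = 1.1e-13). Wfdc1, a secreted protein with a whey acidic domain (6.26 ± 0.33), and Enpep, an aminopeptidase of epithelial brush borders (5.76 ± 0.23), rose by similar log2 amounts. Ugt2b34, a glucuronosyltransferase of a gene family of close copies, had 16.4 and 14.1 CPM at day 16 and 0 and 0.0937 CPM at day 8.

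Large relative losses were smaller and fewer. Of 93 genes that met the same rule in the other direction, the largest decline was that of Exoc3l, with 5.88 and 6.04 CPM at day 16 and 25.7 and 25.5 CPM at day 8 (log2 change -2.10 ± 0.10, edgeR adjusted p = 1e-09); it overlaps a predicted gene on the opposite strand. Bnc2, a zinc finger protein of mesenchymal and epithelial cells, had 12.2 and 13.1 CPM at day 16 and 36.1 and 36.3 CPM at day 8 (log2 change -1.51 ± 0.12), and Kirrel2, an immunoglobulin-type adhesion molecule, had 8.09 and 7.92 CPM at day 16 and 21.2 and 22.3 CPM at day 8 (log2 change -1.44 ± 0.15). The 10 largest declines in mean CPM included chaperone, nucleolar and glycolysis genes with small relative changes. The chaperone Hsp90aa1 had 3110 and 3284 CPM at day 16 and 4389 and 4335 CPM at day 8 (log2 change -0.45 ± 0.06), the nucleolar protein gene Npm1 had 2048 and 1892 CPM at day 16 and 2626 and 2679 CPM at day 8 (log2 change -0.43 ± 0.08), and Trim28, a co-repressor that silences retroelements, had 1366 and 1531 CPM at day 16 and 2370 and 2382 CPM at day 8 (log2 change -0.71 ± 0.07).

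The time change of the Msx1-negative cells differed from that of the Msx1-positive cells for 6384 of the 22294 genes (28.6%; edgeR test of the difference between the 2 time changes, adjusted p below 0.05). The difference, negative minus positive, was above 0 for 4090 genes (18.3%) and below 0 for 2294 genes (10.3%). It was at least 1 above 0 for 11.6% of the genes and at least 1 below 0 for 1.86%. With scaling by library size alone these counts were 5912 and 1088, and the median difference over all genes was 0.284, against 0.0971 with TMM factors. In Msx1-positive cells 10239 genes (45.9%) were called, 4713 higher (21.1%) and 5526 lower (24.8%) at day 16. Changes of at least 1 on the log2 scale ran mostly the other way there, with 6.95% of the genes higher and 11.3% lower by as much, against 9.67% and 1.33% in the negative cells. Called in both fractions in the same direction were 4834 genes (21.7% of those tested), and in opposite directions 740 genes (3.32%), of which 442 (1.98%) were higher in negative and lower in positive cells and 298 (1.34%) were lower in negative and higher in positive cells.

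**Figure D4:**
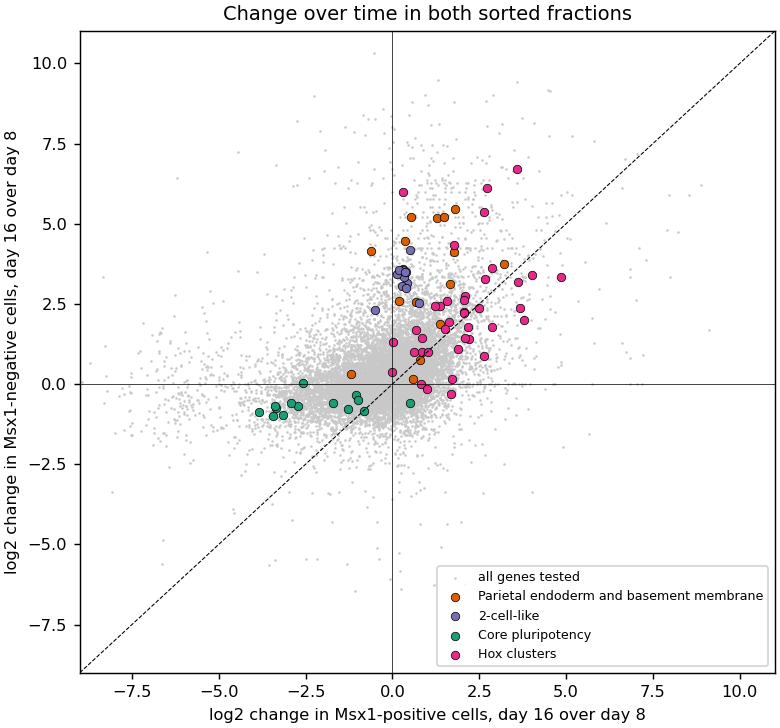
Log2 change between day 16 and day 8 in Msx1-negative cells (y axis) against that in Msx1-positive cells (x axis), 1 point per tested gene. Col4a1 lies far above the line of equal change, at 5.17 in negative and 1.29 in positive cells, and most pluripotency genes lie to the left, with Pou5f1 at -0.70 in negative and -3.37 in positive cells.

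The rise of the basement membrane genes was larger in the Msx1-negative cells. Col4a1 had 919 and 803 CPM at day 16 and 339.7 and 362 CPM at day 8 in Msx1-positive cells (log2 change 1.29 ± 0.07), and the difference of its time changes was 3.88 ± 0.10 (edgeR adjusted p = 1.2e-11). Lama1 had 119.8 and 97.9 CPM at day 16 and 64.3 and 86.5 CPM at day 8 in Msx1-positive cells, and the difference was 4.69 ± 0.24 (edgeR adjusted p = 1.1e-05). Of the 16 listed genes, the difference was called above 0 for 14 and below 0 for 1. For Srgn, which rose in negative cells and fell in positive cells, with 2.12 and 3.82 CPM at day 16 and 4.54 and 4.57 CPM at day 8, the difference was 4.76 ± 0.26. All 12 tested 2-cell-like genes had a difference called above 0, with Zscan4c at 3.09 ± 0.28.

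Most listed pluripotency genes had a higher log2 change in the Msx1-negative than in the Msx1-positive cells. Pou5f1 had 16.1 and 16.7 CPM at day 16 and 166 and 174 CPM at day 8 there (log2 change -3.37 ± 0.06), and the difference was 2.67 ± 0.08 (edgeR adjusted p = 3.7e-11). Nanog, which was not called in negative cells, had 15.9 and 17.6 CPM at day 16 and 106 and 92 CPM at day 8 in Msx1-positive cells (log2 change -2.56 ± 0.08), and the difference was 2.60 ± 0.11 (edgeR adjusted p = 4.2e-10). The difference was called above 0 for 12 of 14 core and 19 of 21 naive genes. Among germ cell genes, 11 of 15 had a difference above 0, and Dazl (2.77 ± 0.17) and Kit (1.44 ± 0.08) rose in negative cells while 13 of the 15 genes fell in positive cells. Hypoxia and glycolysis genes, of which 18 of 22 fell in Msx1-positive cells, had 17 differences above 0, and sterol and lipid genes, of which 10 of 19 rose in Msx1-positive cells, had 13 below 0. Epithelial adhesion genes had 17 of 20 above 0.

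Mesenchymal lists moved in both fractions. For the 23 matrix genes the median log2 change was 2.09 in negative and 2.16 in positive cells, and for the 39 Hox genes it was 1.98 in negative and 2.05 in positive cells; the difference was called above 0 for 8 and below 0 for 6 matrix genes, and above 0 for 5 and below 0 for 5 Hox genes. Smooth muscle genes had 1 difference above 0 and 8 below 0 of 14. Of the called genes with a mean of at least 5 CPM in a group, the 10 whose time change was furthest below that of the positive cells included several genes of bone and matrix. Ibsp, bone sialoprotein, had 2 counts over both day 16 and 6 over both day 8 libraries in negative cells, against 53.8 and 58.6 CPM at day 16 and 1.13 and 1.09 CPM at day 8 in positive cells. Clec11a, a secreted growth factor of bone (-4.68 ± 0.28), the proteoglycans Ogn (-4.39 ± 0.71) and Aspn (-3.68 ± 0.61) and the WNT-binding protein Sfrp4 (-3.69 ± 0.22) were also among them, as were Insc (-4.28 ± 0.33) and Gabra3, a GABA receptor subunit gene (-3.96 ± 0.36). At the other end, the 10 such genes with the largest positive difference included the gastrokines (10.85 ± 1.11 for Gkn2 and 8.41 ± 1.27 for Gkn1), Ugt2b34 (7.91 ± 0.71), Tcf23, a basic helix-loop-helix gene, with 10.6 and 11.2 CPM at day 16 and 0.559 and 0.656 CPM at day 8 in negative cells (difference 6.46 ± 0.58), and the ion channel gene Trpv3, with 21.2 and 19.7 CPM at day 16 and 1.10 and 0.543 CPM at day 8 (difference 5.83 ± 0.41).

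**Figure D5:**
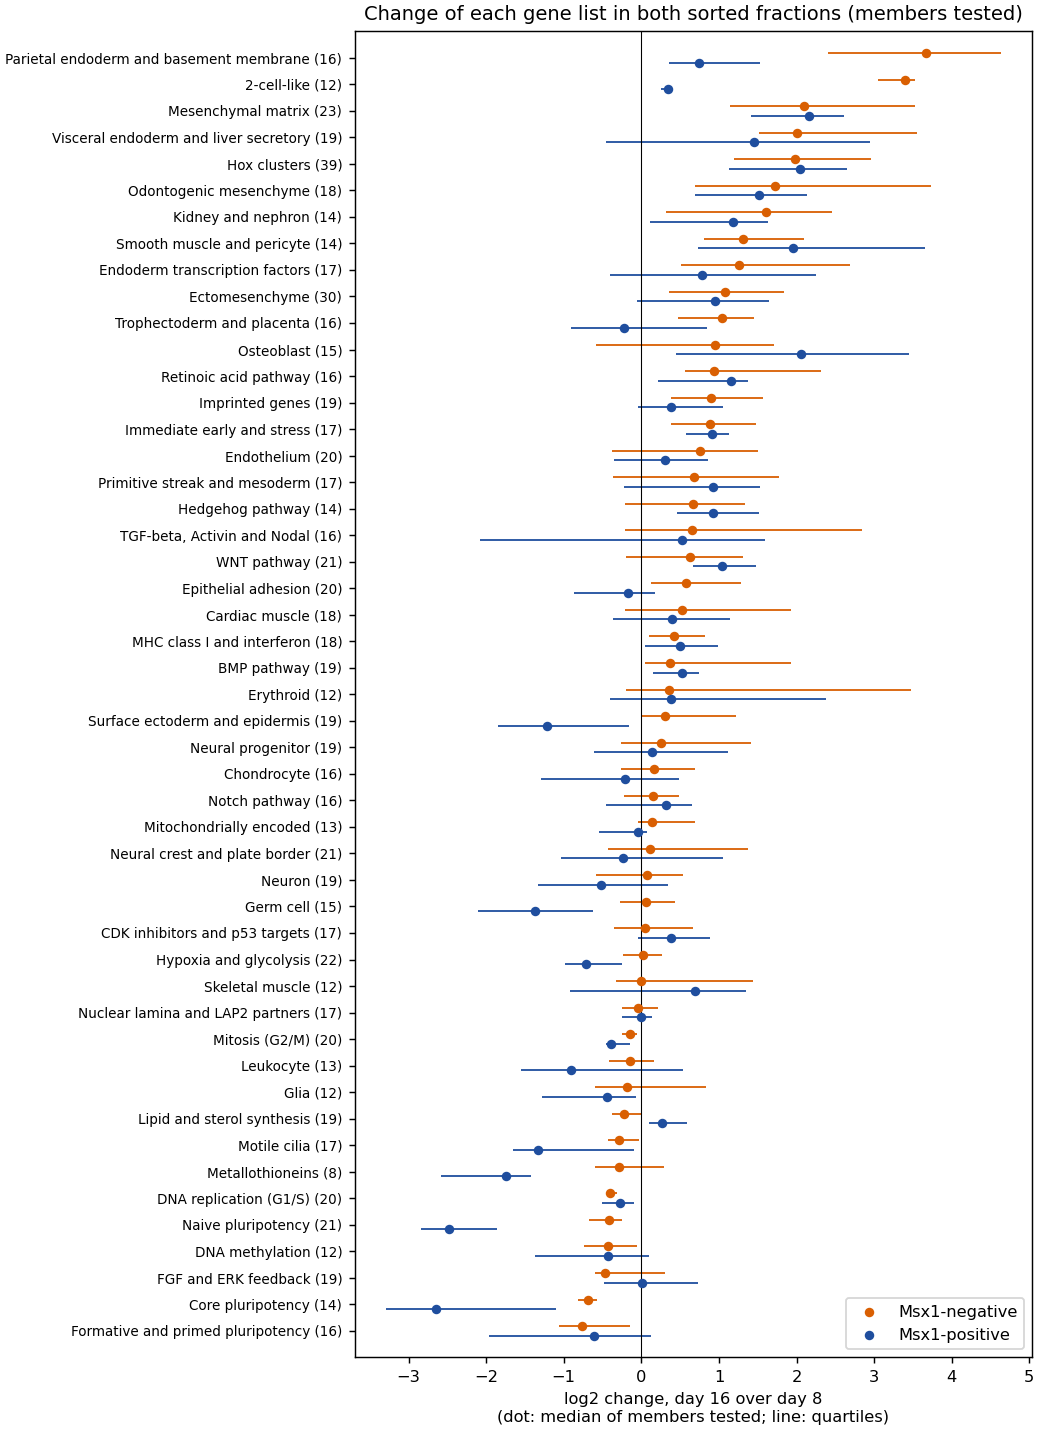
Median log2 change (dots) and quartiles (lines) between day 16 and day 8 of the tested members of 49 gene lists, in Msx1-negative and Msx1-positive cells. The basement membrane list has the highest median in negative cells, 3.67 against 0.74 in positive cells, and the core pluripotency list has -0.69 in negative and -2.65 in positive cells.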

How the data were processed

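The authors deposited a table of raw read counts, as whole numbers per gene symbol and library. Per the submitters' processing notes, the mouse build was GRCm38 and the tools included HISAT2 2.1.0, fastp 0.20.0 and DESeq2 1.18.1. Which program and annotation gave the counts is not given in the sources used here. Per the labels' protocols, TRI Reagent was used for total RNA and an unstranded NEBNext Ultra RNA kit for the libraries, so overlapping genes on opposite strands are not separated.

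The 8 sorted libraries were fitted together in edgeR 4.0.16 (R 4.3.3): filterByExpr by group, TMM factors, glmQLFit with robust estimation and glmQLFTest, two-sided, with Benjamini-Hochberg adjustment over 22294 genes and a call at an adjusted p below 0.05. The comparisons were day 16 against day 8 in Msx1-negative cells, the same in Msx1-positive cells, and the difference of these changes. The method was tested on simulated data. Levels are CPM with TMM factors. The SE was computed from the log2 change and the quasi-likelihood F (|log2 change| over root F), and can be too small where counts are few. For groups with 1 to 3 counts a ratio with a 95% exact interval is printed, which covers counting error only. Groups were taken from the labels.

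The members, the 49 gene lists and the tests were chosen with earlier results of these data known. Genes were named by rule (targets and markers, the 15 largest changes each way, the 10 largest changes in mean CPM each way, up to 4 per list, the 10 largest differences between fractions each way); further list members were named after their values were seen. Of 241 genes the rule named, 236 were called. Coordinates came from GENCODE vM21 by symbol, and promoter sequences from RefSeq on GRCm38.p6. Alternatives were RLE scaling, library size alone, other filters on low counts, DESeq2 1.42.0, a replicate block, other sets of libraries, and each library left out in turn. Some members of the lists are counted but not reported here by name.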

Additional observations from a re-analysis of the deposited data

Results flagged for a closer look

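The time change of the Msx1-negative cells was set against that of the Msx1-positive cells by edgeR's test of the difference between them (log2, negative minus positive, Benjamini-Hochberg over 22294 genes), and every result here was singled out because that test called a difference between the fractions. It did so above 0 for 4090 genes and below 0 for 2294 genes.

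Pluripotency and germ cell genes that fell less, or rose, in the negative cells had differences of 2.67 for Pou5f1, 2.60 for Nanog, 2.77 for Dazl and 1.44 for Kit. Zscan4c, of the 2-cell-like genes, had a difference of 3.09. Basement membrane genes had differences of 3.88 for Col4a1, 4.69 for Lama1 and 4.76 for Srgn.

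Among called genes with a mean of at least 5 CPM in a group, the largest positive differences were those of Gkn2 (10.85), Gkn1 (8.41), Osr1 (8.20), Ugt2b34 (7.91), Wfdc1 (7.28), Tcf23 (6.46), Serpina3g (6.14), Tpbgl (5.87), C1qtnf7 (5.85) and Trpv3 (5.83). Osr1, a zinc finger factor of intermediate mesoderm, had 160 counts over both day 16 Msx1-negative libraries and 0 over both at day 8, so its level was at least 50.5-fold higher at day 16 (taking 3 counts as the floor of the day 8 group). In the same way Serpina3g was at least 36.3-fold and C1qtnf7 at least 12.0-fold higher. All 3 were nonetheless lower in the negative than in the positive cells at day 16. Their mean level was 5.89% of the Msx1-positive level for Osr1, 14.95% for Serpina3g and 2.54% for C1qtnf7. Fitted differences of genes with 0 counts in a group depend on the prior count. Tpbgl had 12.5 and 13.1 CPM at day 16 and 0.263 and 0.337 CPM at day 8 in Msx1-negative cells.

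By the same rule, the largest negative differences were those of Ibsp (-7.22), Clec11a (-4.68), Ogn (-4.39), Insc (-4.28), Gabra3 (-3.96), Adam33 (-3.89), Sfrp4 (-3.70), Aspn (-3.68), Lmod1 (-2.81) and Thbs2 (-2.76). Insc, an adaptor of spindle orientation, had 0.730 and 0.597 CPM at day 16 and 2.12 and 2.85 CPM at day 8 in Msx1-negative cells, against 12.8 and 14 CPM at day 16 and 2.04 and 3.06 CPM at day 8 in Msx1-positive cells. Thbs2, a matrix glycoprotein, had 4.45 and 4.61 CPM at day 16 and 0.724 and 0.787 CPM at day 8 in Msx1-negative cells, against 127 and 118 CPM at day 16 and 2.80 and 3.16 CPM at day 8 in Msx1-positive cells.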

How the results depend on the processing

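The number of genes called in Msx1-negative cells was 8373, and 8423 with RLE scaling, 8045 with library size alone, 8583 of 36252 genes without a filter, 7584 of 15215 genes with at least 1 CPM in at least 4 libraries, 8688 with the 4 Msx1-negative libraries alone, 8369 with the ES libraries added, 8151 with DESeq2, and 6329 to 6647 with 1 library left out. For the difference between fractions, the count below 0 was 1088 with library size alone, against 2294 with TMM factors; the cause was not tested. Under that stricter filter of 1 CPM, where fewer genes were tested, the calls of at least 1 on the log2 scale were 1405 higher and 167 lower in Msx1-negative cells, against 2156 and 296, and 1597 lower in Msx1-positive cells, against 2528. Under every other setting, the total number of calls of each comparison, and the number in each direction, stayed within 1.5 times. Counts within single lists moved by more in places. The replicate numbers did not pair the libraries (correlations of replicate differences between groups ran from -0.048 to 0.118), and a replicate block gave 8125 calls, of which 8036 were among the 8373. Of the 241 genes named by rule, 215 kept their call and direction under every alternative in which they were tested, and none reversed. With at least 1 CPM in at least 4 libraries, 225 of the 241 were unchanged, 2 lost their call and the rest were not tested. Some list medians near 0 changed sign when 1 library was left out, with the cause not tested. Over the members tested with all libraries, they ran from -0.19 to 0.10 for leukocyte genes (-0.15 with all libraries), from -0.0094 to 0.20 for the Notch pathway (0.14), from -0.25 to 0.023 for metallothioneins (-0.29), and from -0.030 to 0.0011 for mitochondrially encoded genes (0.14; -0.02 without day 16 or day 8 replicate 1). They also ran from -0.24 to 0.062 for neuronal genes (0.074), from -0.038 to 0.018 for nuclear lamina genes (-0.047), from -0.012 to 0.027 for hypoxia and glycolysis genes (0.023), and from 0.12 to 0.79 for skeletal muscle genes (-0.0035). Depth was 56048918 to 63489887 counts per Msx1-negative library, and ratios of genes with 1 to 3 counts at day 8 (the gastrokines, Inhba, Hbb-y) are known only within their wide intervals.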
